A study of Homo sapiens with 6 samples.

Results

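The epithelial keratins described here are 9 genes, KRT7, KRT8, KRT10, KRT17, KRT18, KRT19, KRT80, KRT81 and KRT86, out of 60617 genes in a table of RNA-seq counts. They were chosen by symbol, each matched to 1 Ensembl identifier. The rule itself uses no measured value, but the genes were chosen with earlier results of these data known. RNA was taken from A549, a human lung cancer line grown in culture, in 2 groups of 3 libraries: cells with a knockout of YTHDF1 (YTHDF1 KO) and wild-type cells (WT). The labels call the libraries of a group biological replicates and do not say whether these are separate clones or cultures, so the p-values measure the spread among these libraries, which may be technical. The study set out to compare the transcriptomes of the knockout and wild-type cells.

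Keratins are the intermediate filament proteins of epithelial cells. Each filament is built from dimers of a type I chain, encoded in a gene cluster on chromosome 17, and a type II chain, encoded on chromosome 12, and KRT18 is a type I gene that lies beside its type II partner KRT8 on chromosome 12. KRT8 and KRT18 form the filaments of simple epithelia, with KRT7 and KRT19 as further simple-epithelial chains, while KRT10 belongs to the upper layers of the epidermis, KRT17 to stratified and injured epithelium, and KRT81 and KRT86 to the hair shaft. The filaments attach to desmosomes through desmoplakin and to hemidesmosomes through plectin, and carry mechanical load across the epithelial sheet.

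YTHDF1, a cytoplasmic reader protein of methylated adenosine in mRNA, had 48.1 ± 0.870 CPM in the knockout libraries and 99.4 ± 3.89 CPM in the wild-type libraries (SD, n = 3 each), lower in the knockout in edgeR's test (adjusted p 7.84e-18) and still detected there. CPM is a count scaled to a common library total. The knockout libraries held 32037107, 40675628 and 40186533 counts and the wild-type libraries 38225388, 27238817 and 40460782. At these depths 3 counts in a library are worth 0.0735 to 0.111 CPM. Mitochondrial mRNAs held 3.72% to 3.98% of the counts in the knockout libraries and 5.76% to 5.92% in the wild-type libraries, and the part of this difference in the results that follow was not tested. In RNA from a whole culture, fewer cells of a kind and less RNA per cell cannot be told apart.

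The epithelial label fits the simple keratins, and less so some other epithelial genes. Of 10 epithelial markers, KRT7, KRT8 and KRT18 were abundant in every library, and the summed level was 4779 to 5074.5 CPM in the knockout libraries and 3755 to 4144 CPM in the wild-type libraries. Most of this sum was keratin: KRT7, KRT8 and KRT18 averaged 2439, 1797 and 498 CPM in the knockout and 1854, 1576 and 489 CPM in the wild type. KRT19 is also among the 10 markers, so the sum is no support for the label apart from the keratins. EPCAM, the epithelial cell adhesion molecule, averaged 1.94 ± 0.306 CPM in the knockout and 2.10 ± 0.419 CPM in the wild type. KRT81 and KRT86 are known as hair keratins, and KRT81 was among the 3 most abundant keratins of this lung line.

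Of the 9 keratins, 8 passed the filter on low counts and 6 of these differed between the groups at an adjusted p under 0.05 by the quasi-likelihood test of edgeR, with Benjamini-Hochberg adjustment over 18505 genes. KRT7, KRT8, KRT19 and KRT80 were higher in the knockout libraries, KRT10 and KRT81 were lower, and KRT18 and KRT86 did not pass the test. Of all genes tested 53.5% passed, 27.2% higher and 26.3% lower, and of those that averaged 10 CPM or more 71.4% passed. With 6 of 8 tested keratins and 6 of the 7 above 10 CPM past the threshold, the keratin share lies near that of abundant genes in general. The 8 keratins had a median log2 fold change (knockout minus wild type) of 0.11 against 0.0011 over all genes, and a median absolute log2 fold change of 0.30 against 0.36. When a fold change of 1.5 was built into the test, 1 keratin, KRT10, still passed.

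**Figure D1:**
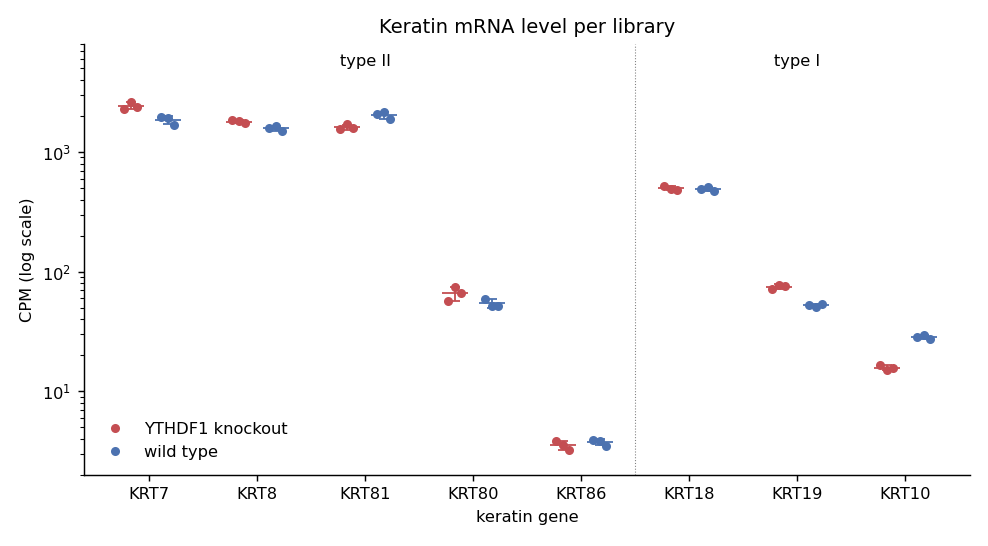
Level of 8 keratin mRNAs in each library, in CPM on a log scale, with type II genes on the left and type I genes on the right. Points are libraries and bars the mean ± SD of 3 libraries, with YTHDF1 knockout left of wild type. KRT7, KRT8 and KRT19 lie higher in all 3 knockout libraries, KRT81 and KRT10 lie lower, and KRT18, KRT80 and KRT86 overlap. KRT17, with 8 counts in all, is not drawn.

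KRT8, the type II chain of simple epithelia, had 1834, 1812 and 1745.5 CPM in the knockout libraries, against 1574, 1647 and 1507 CPM in the wild-type libraries. All 3 knockout libraries lay above all 3 wild-type libraries. The means were 1797 ± 46.2 CPM in the knockout and 1576 ± 69.9 CPM in the wild type (SD, n = 3 each), a 1.14-fold difference (95% interval 1.08 to 1.20) with a log2 fold change of 0.19 (SE 0.0381) and an adjusted p of 7.81e-05 in edgeR's test. This was the smallest difference among the 6 keratins that passed.

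KRT7, a type II chain of glandular and ductal epithelia, had 2300.5, 2621 and 2395 CPM in the knockout libraries, against 1949.7, 1918 and 1694 CPM in the wild-type libraries. The groups did not overlap, and non-overlap was found for 58.9% of all genes tested. KRT7 rose 1.32-fold (95% interval 1.23 to 1.40) in the knockout libraries, with a log2 fold change of 0.40 (SE 0.0458) and an adjusted p of 5.89e-09 in edgeR's test. By its mean over the 6 libraries KRT7 ranked 32 among the 18505 genes tested, KRT81 35 and KRT8 41.

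KRT18, the type I partner of KRT8, had 518, 489 and 485 CPM in the knockout libraries, against 486, 507 and 474 CPM in the wild-type libraries. The groups overlapped, with wild-type library 2 above knockout libraries 2 and 3. The log2 fold change was 0.025 (SE 0.0410, adjusted p 0.640 in edgeR's test), and its 95% interval, 0.960-fold to 1.08-fold, covers only small differences in either direction.

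KRT19, the shortest keratin and a type I chain that lacks the usual tail domain, showed the largest rise among the 8 keratins tested. It had 71.1, 77.6 and 75.5 CPM in the knockout libraries, against 52.3, 51.0 and 53.1 CPM in the wild-type libraries. The wild-type libraries lay close together and well below the knockout libraries. The rise was 1.43-fold (95% interval 1.33 to 1.55), with a log2 fold change of 0.52 (SE 0.0548) and an adjusted p of 8.08e-10 in edgeR's test.

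KRT80, a type II chain, had 56.7, 74.6 and 66.0 CPM in the knockout libraries, against 59.3, 51.5 and 51.8 CPM in the wild-type libraries. The groups overlapped, since knockout library 1 lay below wild-type library 1. The log2 fold change was 0.28 (SE 0.0714, adjusted p 0.00127 in edgeR's test). It was 0.18 without knockout replicate 2, which was the highest library, with an adjusted p of 0.0396.

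KRT10, the type I keratin of differentiated epidermis, showed the largest fall among these 8 and was a minor keratin here. It had 16.4, 15.0 and 15.6 CPM in the knockout libraries, against 28.6, 29.7 and 27.2 CPM in the wild-type libraries. The groups were far apart relative to their spread, with means of 15.7 ± 0.723 CPM in the knockout and 28.5 ± 1.25 CPM in the wild type (SD, n = 3 each). KRT10 fell by 0.86 on the log2 scale (SE 0.0804, adjusted p 5.28e-11 in edgeR's test), to 0.551 of its wild-type level (95% interval 0.492 to 0.617).

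KRT81, a type II hair keratin, had 1562, 1709 and 1573 CPM in the knockout libraries, against 2061, 2140.5 and 1872.5 CPM in the wild-type libraries. Every knockout library lay below every wild-type library. KRT81 fell by 0.33 on the log2 scale (SE 0.0430, adjusted p 7.98e-08 in edgeR's test), to 0.797 of its wild-type level (95% interval 0.750 to 0.847).

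KRT86, a second type II hair keratin, had 3.81, 3.58 and 3.22 CPM in the knockout libraries, against 3.90, 3.86 and 3.50 CPM in the wild-type libraries. These values came from 104 to 148 counts per library, and the groups overlapped. The log2 fold change was -0.087 (SE 0.179, adjusted p 0.716 in edgeR's test), with a 95% interval of 0.731-fold to 1.21-fold.

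Reads cannot always be assigned to 1 of KRT81 and KRT86. KRT86 spans chromosome 12 from 52249300 to 52309163 on the plus strand (GENCODE 29, GRCh38), and KRT81 lies inside that span, from 52285913 to 52291534 on the minus strand. Their coding sequences had the same base at 1361 of 1454 aligned positions (93.6%). Among 652 aligned windows of 90 coding bases that lie within 1 exon and hold no gap, the median window held 0 differences and the most divergent held 9.

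Over whole transcripts, 35.9% of the 75-base stretches of KRT81 occur in another gene (32.4% of all its stretches in KRT86), and 30.7% of those of KRT86 occur elsewhere. Neither the read length nor the handling of reads with several matches is stated, so the division of reads between these genes is uncertain. KRT86 counts were 0.244%, 0.209% and 0.205% of KRT81 counts in the knockout libraries and 0.189%, 0.180% and 0.187% in the wild-type libraries. With the counts of both genes added into 1 row, the log2 fold change was -0.33, as for KRT81 alone. KRT86 counts are too few beside those of KRT81 to move this sum, so it does not test the division of reads. KRT83, another hair keratin whose coding sequence is 93.4% identical to that of KRT81, averaged 1.62 ± 0.306 CPM in the knockout and 2.81 ± 0.413 CPM in the wild type and fell by 0.78 on the log2 scale (SE 0.239, adjusted p 0.00641 in edgeR's test). Its reads are subject to the same uncertainty.

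KRT17, the type I keratin of injured and stratified epithelium, was close to undetected. It had 2, 0 and 6 counts in the knockout libraries and 0 in each wild-type library, and did not pass the filter, so it was not tested. Most of its 8 counts came from knockout library 3.

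The keratins as a whole took up 0.641%, 0.682% and 0.644% of all counts in the knockout libraries, against 0.616%, 0.628% and 0.562% in the wild-type libraries. All 3 knockout shares lay above the wild-type shares, and the gap between the lowest knockout and the highest wild-type library was small. Within the keratin counts, KRT7, KRT8 and KRT81 together held 89.9% ± 0.383 in the knockout and 89.7% ± 0.336 in the wild type (SD, n = 3 each), while the order within these 3 genes differed. These shares are descriptions with no test.

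KRT7 made up 36.2%, 38.5% and 37.7% of keratin counts in the knockout libraries, against 31.4%, 30.2% and 29.8% in the wild-type libraries. KRT81 made up 24.5%, 25.1% and 24.7% in the knockout libraries, against 33.2%, 33.7% and 32.9% in the wild-type libraries. KRT7 thus held the largest share of counts in every knockout library and KRT81 in every wild-type library. The ratio of KRT7 to KRT81 counts was 1.47, 1.53 and 1.52 in the knockout libraries and 0.946, 0.896 and 0.905 in the wild-type libraries.

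**Figure D2:**
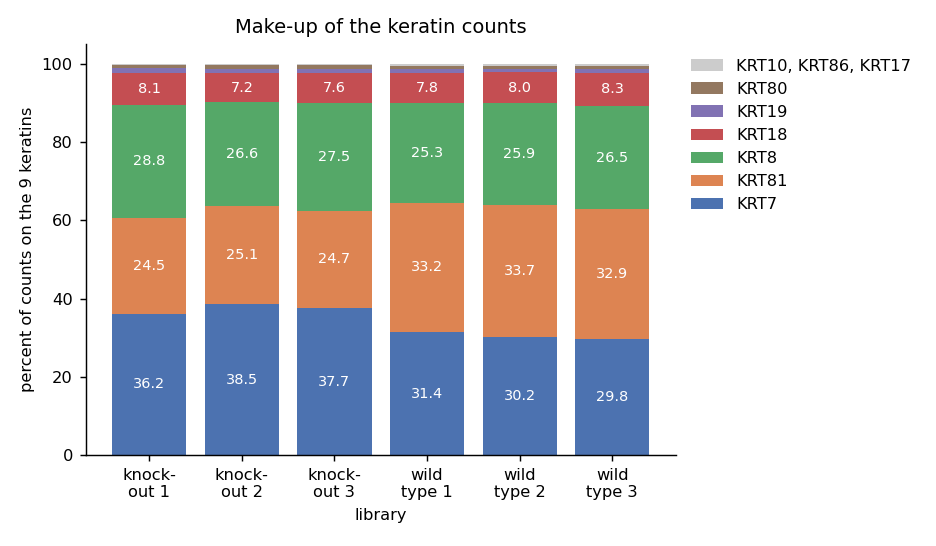
Percent of the counts on the 9 keratins that fell on each gene, 1 stacked bar per library, with the 3 knockout libraries on the left and the 3 wild-type libraries on the right. KRT7 fills 36.2% to 38.5% of the knockout bars and 29.8% to 31.4% of the wild-type bars, and KRT81 fills 24.5% to 25.1% of the knockout bars and 32.9% to 33.7% of the wild-type bars.

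The ratio of KRT18 to KRT8, which pair in the filament, was compared next. Per kilobase of exon, the ratio of KRT18 to KRT8 levels was 0.604, 0.578 and 0.595 in the knockout libraries, against 0.661, 0.659 and 0.672 in the wild-type libraries. All 3 knockout ratios lay below the wild-type ratios, and a two-sided exact permutation test over libraries gave p = 0.1, the smallest that 3 against 3 libraries can give. The size of this ratio depends on the length used. With the length of 1 principal transcript per gene it was 0.377 ± 0.00850 in the knockout and 0.422 ± 0.00462 in the wild type. KRT18 and KRT8 lie head to head, with 525 exonic bases on opposite strands in common (16.3% of the exonic bases of KRT18 and 7.63% of those of KRT8). The strand setting of the counting is not stated. The summed level of type I over type II keratins per kilobase was 0.114 ± 0.00705 in the knockout and 0.108 ± 0.00460 in the wild type, with overlap between the groups. Its direction depends on the length used. With the length of 1 principal transcript per gene it was 0.123 ± 0.00725 in the knockout and 0.127 ± 0.00515 in the wild type, again with overlap.

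**Figure D3:**
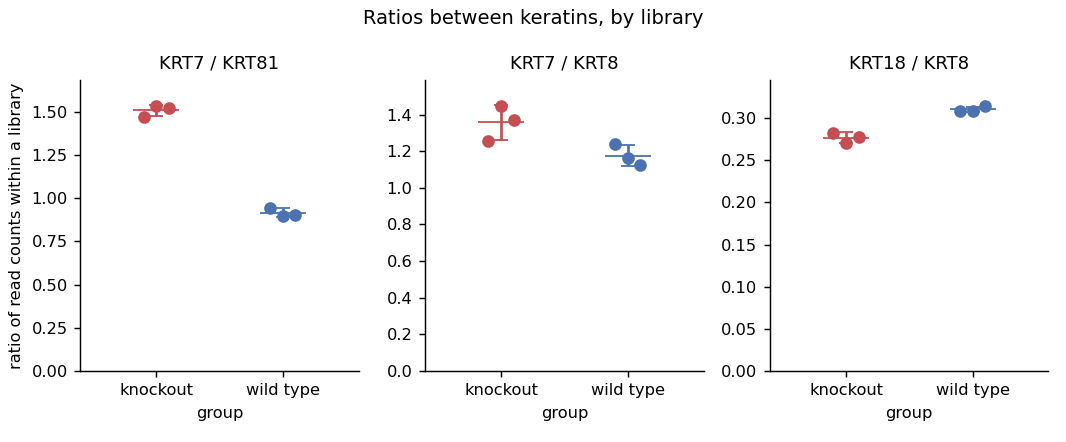
Ratios of read counts between keratin pairs in each library, on linear axes from 0, with knockout left of wild type. Points are libraries and bars the mean ± SD of 3 libraries. The KRT7 to KRT81 ratio (1.47 to 1.53 in knockout, 0.896 to 0.946 in wild type) and the KRT7 to KRT8 ratio are higher in the knockout libraries and the KRT18 to KRT8 ratio is lower, each without overlap.

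Levels of different genes were compared per length, as CPM per kilobase of exonic bases. In the knockout libraries KRT81 led with 837 ± 42.5, followed by KRT7 with 596 ± 40.2, KRT8 with 261 ± 6.72 and KRT18 with 155 ± 5.51. In the wild-type libraries the same 4 genes had 1049.5 ± 71.3, 453 ± 34.0, 229 ± 10.2 and 152 ± 5.27 (SD, n = 3 each). Further down, KRT19 had 32.0 ± 1.44 in the knockout and 22.3 ± 0.451 in the wild type, and KRT80 had 15.1 ± 2.06 in the knockout and 12.5 ± 1.02 in the wild type. KRT10 had 7.32 ± 0.337 in the knockout and 13.3 ± 0.581 in the wild type, so it stood below KRT80 in the knockout, while in the wild type the levels of these neighbours differed by less than their spread. KRT86 came last of the 8, with 1.48 ± 0.124 in the knockout and 1.57 ± 0.0933 in the wild type. The top of the order depends on the length used. With the length of 1 principal transcript, KRT7 led in the knockout, at 1390.4 against 837 for KRT81. In the wild type KRT7 had 1057 and KRT81 1049.5, a gap smaller than the spread of KRT81 among libraries.

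Along chromosome 12, neighbouring keratins changed in different directions. KRT80 (52168996 to 52192000, minus strand) and KRT7 (52232520 to 52252186, plus strand) rose, KRT81 and KRT83 a short distance away fell, and KRT8 (52897187 to 52949954, minus strand) rose while KRT18 beside it (52948871 to 52952901, plus strand) did not pass the test. On chromosome 17, KRT10 (40818117 to 40822595, minus strand) fell and KRT19 (41523617 to 41528308, minus strand) rose. KRT17 lies from 41619441 to 41624842 on the minus strand.

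**Figure D4:**
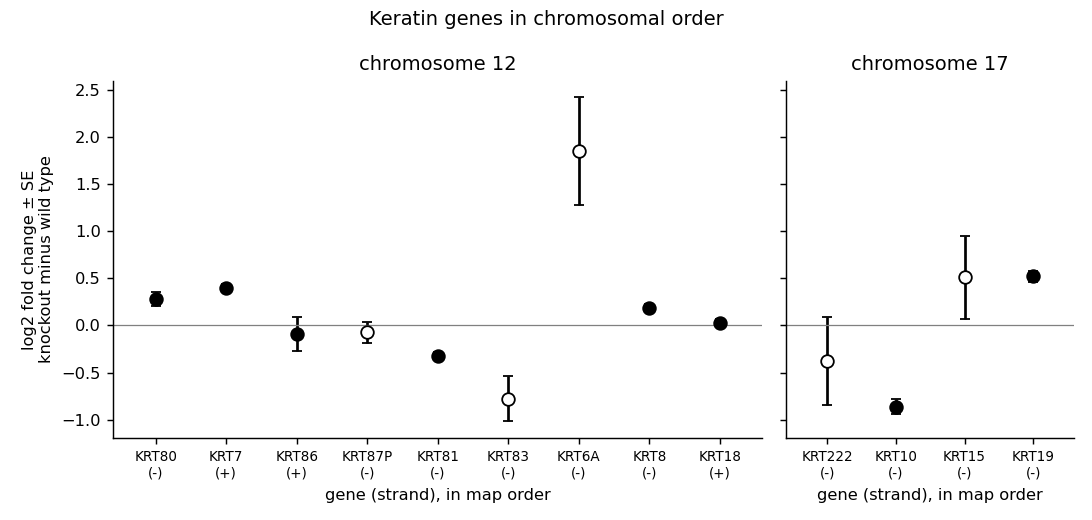
Log2 fold change (knockout minus wild type) ± SE of keratin genes that passed the filter, in map order on chromosomes 12 and 17, with the strand under each name and equal spacing that does not show distance. Filled points are the 8 keratins described here and open points other keratin-family genes. KRT34, which has 0 counts in wild type, is not drawn. Higher and lower genes occur in both clusters, from 0.52 for KRT19 to -0.86 for KRT10 among the 8 keratins.

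The antisense genes at KRT7 and KRT10 differed between the groups in the same direction as their partners. KRT7-AS averaged 36.3 ± 4.28 CPM in the knockout and 25.2 ± 3.91 CPM in the wild type, a log2 fold change of 0.53 (SE 0.0901, adjusted p 6.58e-06 in edgeR's test). Its counts were 1.45%, 1.57% and 1.43% of those of KRT7 in the knockout libraries and 1.37%, 1.47% and 1.23% in the wild-type libraries. KRT10-AS1 averaged 7.51 ± 0.272 CPM in the knockout and 12.2 ± 0.933 CPM in the wild type and fell by 0.70 on the log2 scale (SE 0.113, adjusted p 2.71e-06 in edgeR's test). KRT7 shares 282 exonic bases with KRT7-AS and KRT10 shares 56 with KRT10-AS1, each on the opposite strand. Without the strand setting of the counting, reads of a gene and its antisense partner cannot be told apart there.

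Processed pseudogenes, which are intronless copies of KRT8 and KRT18 mRNA scattered over the genome, held few reads. Those of KRT8 together had 0.731% to 0.843% of the counts of KRT8 in the knockout libraries and 0.923% to 0.938% in the wild-type libraries, and those of KRT18 had 0.435% to 0.561% of the counts of KRT18 in the knockout and 0.41% to 0.575% in the wild type. Of 150 keratin pseudogenes of any kind 13 passed the filter, of which KRT8P30 was higher (0.418 CPM in the knockout, 0.0678 CPM in the wild type), KRT8P39 was lower (0.179 CPM in the knockout, 0.633 CPM in the wild type, adjusted p 0.069 without wild-type replicate 3) and 11 did not pass the test. Over all genes tested, at any level, 27.2% were higher and 26.3% lower. KRT8P30 passed the filter through its knockout libraries alone and KRT8P39 through its wild-type libraries alone. Their calls were thus nearly built in. KRT87P, the one with the most counts, is an unprocessed pseudogene and not a copy of KRT8 or KRT18 mRNA. It averaged 9.86 ± 0.658 CPM in the knockout and 10.3 ± 0.753 CPM in the wild type (adjusted p 0.629 in edgeR's test). KRT8P12 averaged 6.38 CPM in the knockout and 6.06 CPM in the wild type, and KRT8P3 averaged 3.13 CPM in the knockout and 2.94 CPM in the wild type, neither past the threshold.

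The 9 keratins held 99.9% of the counts on 54 type I and type II keratins. Of the other 45, 4 passed the filter. KRT34, a type I hair keratin, had 44, 13 and 51 counts in the knockout libraries and 0 in each wild-type library (adjusted p 2.43e-07 in edgeR's test). It passed the filter through its knockout libraries alone, so a call of higher was nearly built in. KRT6A, a type II keratin of injured epithelium and hair follicle, had 14, 20 and 37 counts in the knockout libraries and 10, 2 and 6 in the wild-type libraries, with a log2 fold change of 1.85 (SE 0.572, adjusted p 0.00682 in edgeR's test) that lost significance without knockout replicate 3 (1.45, adjusted p 0.0981). KRT15, a basal-layer type I keratin, averaged 0.758 ± 0.301 CPM in the knockout and 0.531 ± 0.125 CPM in the wild type (adjusted p 0.351). KRT83 is the fourth. All told, 2 of 5 type I keratins tested were higher and 1 lower, and 4 of 7 type II keratins tested were higher and 2 lower. The higher ones include KRT34 and KRT6A. KRT6A, like KRT34, passed the filter through its knockout libraries, so its call carries little weight. Over all genes tested, 27.2% were higher and 26.3% lower.

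The other intermediate filament genes ran more often lower, with 3 higher and 6 lower of 10 tested and a median log2 fold change of -0.47, against 0.0011 over all genes. Of all genes tested, 27.2% were higher and 26.3% lower. VIM, the mesenchymal filament vimentin, had 289, 328 and 322 CPM in the knockout libraries, against 508, 496 and 507 CPM in the wild-type libraries. VIM fell by 0.69 on the log2 scale (SE 0.0440, adjusted p 5.02e-15 in edgeR's test), without overlap between the groups. The nuclear lamins LMNA, LMNB1 and LMNB2 fell by 0.36, 0.75 and 0.59. INA, the neuronal filament internexin, went the other way, with 113 ± 2.39 CPM in the knockout and 31.1 ± 1.15 CPM in the wild type, and a log2 fold change of 1.86 (SE 0.0547, adjusted p 2.51e-24 in edgeR's test). NEFL, the neurofilament light chain, and SYNM, synemin, were the other higher genes, with log2 fold changes of 0.73 and 0.26.

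Desmosome components, the anchors of keratin filaments between cells, were mixed, with 4 higher and 3 lower of 9 tested and a median log2 fold change of 0.070. The shares over all genes tested were 27.2% higher and 26.3% lower. DSP, the desmoplakin that links keratin to the desmosome, had 359, 366 and 388 CPM in the knockout libraries, against 231, 223 and 231 CPM in the wild-type libraries, a log2 fold change of 0.70 (SE 0.0424, adjusted p 1.12e-15 in edgeR's test). The membrane protein PERP rose by 0.41 on the log2 scale, while the desmosomal cadherin DSC2 fell by 1.58, to 7.51 ± 0.561 CPM in the knockout against 22.4 ± 2.36 CPM in the wild type, and the plakophilin PKP4 fell by 0.43. The remaining components past the threshold were the plakophilin PKP2 (0.50) and the cadherin DSG2 (0.11), both higher, and the plakophilin PKP3, which fell by 0.24. These 3 lost significance with some libraries left out: PKP2 without knockout replicate 2 (adjusted p 0.242) or wild-type replicate 2 (0.063), DSG2 without knockout replicate 3 (0.177), wild-type replicate 1 (0.0518) or wild-type replicate 3 (0.203) and with the replicate block (0.058), and PKP3 without knockout replicate 3 (0.130). Among plakins, hemidesmosome components and keratin linkers, 3 of 14 were higher and 7 lower, with a median of -0.050. ITGB4 and ITGA6, the paired integrin chains of the hemidesmosome, fell by 0.48 and 0.43, and the keratin-binding TCHP and the desmosome-associated PNN rose by 0.35 and 0.21. EPPK1, epiplakin, was also higher, at 1.24, 1.03 and 1.82 CPM in the knockout libraries and 0.712, 0.223 and 0.0749 CPM in the wild-type libraries. Its log2 fold change of 1.99 was 3.28 without wild-type replicate 1, the highest of the wild-type libraries, and 1.48 without wild-type replicate 3, the lowest. EPPK1 passed the filter on low counts through its knockout libraries, so its call as higher carries little weight.

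Of 20 keratin partners and modifiers, 13 were higher and 3 lower, with a median log2 fold change of 0.19. Among all genes tested 27.2% were higher and 26.3% lower, and 71.4% of those that averaged 10 CPM or more passed in either direction. TRADD, a death-receptor adaptor that binds KRT18, had 58.2 ± 2.83 CPM in the knockout and 27.7 ± 1.86 CPM in the wild type, a log2 fold change of 1.07 (adjusted p 1.77e-15 in edgeR's test). The kinase PRKCE rose by 0.67, and among the 14-3-3 proteins, some of which bind phosphorylated KRT18, SFN, YWHAG, YWHAH and YWHAZ rose by 0.58, 0.48, 0.45 and 0.19, while YWHAE, YWHAQ and YWHAB fell by 0.39, 0.32 and 0.18. Of 16 cornified envelope and squamous genes 9 had 0 counts in all libraries and 5 were tested, with 2 lower and 0 higher. These were FLG, filaggrin, which fell by 1.64 and had 1.57 CPM in the knockout and 4.97 CPM in the wild type, and SOX2, a squamous lineage factor, which fell by 0.81 (adjusted p 0.0237 in edgeR's test, and 0.0649, 0.112 and 0.187 without knockout replicate 1, knockout replicate 2 and wild-type replicate 3).

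Transcription factors known to act at keratin promoters were higher in 16 and lower in 3 of 26 tested, with a median log2 fold change of 0.50. For all genes tested the shares were 27.2% higher and 26.3% lower, and 71.4% of those that averaged 10 CPM or more passed in either direction. JUN and FOSL2, which are AP-1 subunits, rose by 1.14 and 0.78, and STAT3 rose by 0.88. The 3 lower factors were GLI1, a hedgehog effector, the glucocorticoid receptor NR3C1 and the retinoic acid receptor RARA, which fell by 0.86, 0.49 and 0.23. GRHL2, an epithelial grainyhead factor, had 0 counts in all 6 libraries. Of the 10 epithelial markers 9 were tested, with 6 higher, KRT7, KRT8 and KRT19 among them, and 0 lower. The other 3, EPCAM and KRT18 among them, did not pass the test. Outside the keratins, the smallest adjusted p belonged to CDH1 and MUC1. CDH1, E-cadherin, had 34.0 ± 0.602 CPM in the knockout and 10.0 ± 1.69 CPM in the wild type, and MUC1, a membrane mucin, had 31.5 ± 1.44 CPM in the knockout and 8.96 ± 1.95 CPM in the wild type, log2 fold changes of 1.76 and 1.79. EPCAM had a log2 fold change of -0.094.

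**Figure D5:**
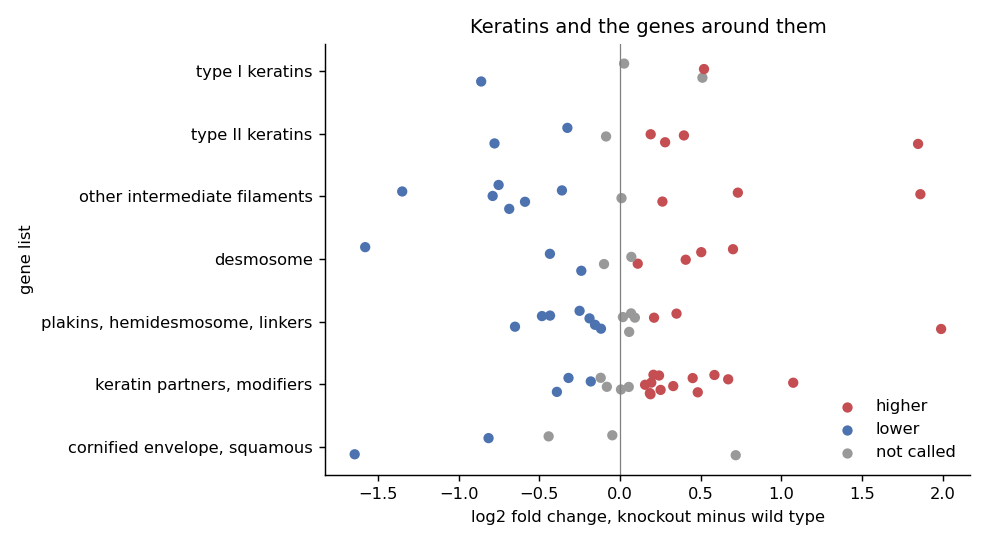
Log2 fold change (knockout minus wild type) of every tested gene of 7 gene lists, 1 row per list, with higher genes in red, lower genes in blue and genes that did not pass the test in grey. KRT34 lies beyond the axis and is not drawn. The keratin rows hold genes on both sides of 0, and the row of other intermediate filaments has its median at -0.47.

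RefSeq promoter windows (GRCh38.p14, 300 bases around a gene's start) were matched for 2 of the 9 keratins, KRT8 and KRT10, and were searched on both strands. The window of KRT10 holds a TATA box (TATAAA), found in 11.5% of all 35116 windows, and a match to the interferon-response element ISRE (TTTC, any pair of bases, TTTC), found in 3.57%. It held no GC box (GGGCGG, 45.0% of windows), AP-1 motif (TGANTCA, 7.71%) or STAT-binding motif GAS (7.66%). The window of KRT8, chr12:52926420-52926719, lies inside the GENCODE 29 span of the gene and not at its outer end, so it does not cover every start of KRT8. None of the 5 motifs was found in that window.

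By the root-mean-square difference of centred log2 CPM over the 6 libraries, the genes closest to KRT19 among the 11128 that averaged 5 CPM or more were CYLD (0.0183), DNER (0.0192) and ERP44 (0.0200). They had log2 fold changes of 0.53, 0.51 and 0.54. The genes closest to KRT10 were YBX1 (0.0417), NOA1 (0.0417) and NCAPD2 (0.0420), with log2 fold changes of -0.90, -0.90 and -0.83. The differences from KRT10 were larger than those from KRT19.

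Markers of other cell types were at low levels beside the abundant keratins KRT7, KRT8, KRT18 and KRT81. The fibroblast marker COL1A1 was above KRT86 in both groups, and above KRT10 (15.7 CPM) in the knockout. Fibroblast markers summed to 47.3 to 50.4 CPM in the knockout libraries and 41.4 to 43.2 CPM in the wild-type libraries, most of it COL1A1 (41.9 CPM in the knockout, 29.8 CPM in the wild type), and 2 of 6 tested were higher (COL1A1, LUM) and 4 lower (THY1, PDGFRB, PDGFRA, COL3A1). The background over all genes was 27.2% higher and 26.3% lower. PDGFRB averaged 0.124 CPM in the knockout and 1.34 CPM in the wild type. It passed the filter on low counts through its wild-type libraries, so its call as lower carries little weight. Blood cell markers summed to 8.11 to 8.36 CPM in the knockout and 14.2 to 15.2 CPM in the wild type, with MS4A1, CD3E and CD3D at 0 in all libraries. Of these CD14 was lower (3.45 CPM in the knockout, 11.1 CPM in the wild type) and ITGAM higher (4.70 CPM in the knockout, 3.24 CPM in the wild type). The calls of LUM, PDGFRA, COL3A1 and ITGAM were each lost when a library was left out: LUM without knockout replicate 2 (adjusted p 0.247) or wild-type replicate 2 (0.150), PDGFRA without knockout replicate 1 (0.064) or wild-type replicate 1 (0.0505), COL3A1 without wild-type replicate 2 (0.0561) and ITGAM without wild-type replicate 3 (0.0544). Endothelial markers summed to 0.490 to 0.588 CPM in the knockout and 0.870 to 1.27 CPM in the wild type. Their part in the keratin results was not tested.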

How the data were processed

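The authors deposited 1 table of raw counts, whole numbers per Ensembl gene, for 3 YTHDF1 knockout and 3 wild-type libraries. Per the labels' protocols, total RNA was made into libraries with a TruSeq stranded kit. The submitters' processing notes list featureCounts 2.0.1, STAR 2.7.0d, edgeR 3.32.1 and Trim Galore 0.6.6, with GRCh38 as build. Not given in the sources used here: the annotation, the strand setting and the handling of reads with several matches.

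Counts were analysed in R 4.3.3 with edgeR 4.0.16: filterByExpr, TMM factors and a two-sided quasi-likelihood test on genotype, with Benjamini-Hochberg adjustment over 18505 genes (threshold 0.05). CPM values use the TMM factors. Symbols came from a symbol table for 42000 identifiers and from GENCODE 29 for 809. GENCODE 29 also gave loci, lengths, coding sequences and shared stretches, and may differ from the annotation used for counting. Libraries of a group differed by more than sampling noise (chi-square per degree of freedom 4.40 to 6.55), so all 6 were kept. Floors and intervals on counts cover counting error only.

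The keratins and the 13 gene lists were chosen with earlier results of these data known. Genes named beyond the 9 keratins were every other keratin tested, from each list up to 4 genes of smallest adjusted p, LMNA, VIM and DSP, the 3 genes closest to the tested keratins with the largest rise and fall, and the 3 pseudogenes with the most counts. EPCAM, GRHL2, the antisense genes and the genes that complete a small count of a list (NEFL, SYNM, PKP2, PKP3, DSG2, EPPK1, YWHAB, YWHAH, YWHAQ, YWHAZ, SFN, RARA, GLI1, NR3C1, LUM, PDGFRA, KRT8P30, KRT8P39) were named outside this rule, after their values were seen. A few genes and sequences are not reported here. Alternatives were DESeq2 1.42.0, limma-voom (limma 3.58.1), RLE factors, library size only, other filters, a replicate block, a 1.5-fold test, pseudogene counts added, and leaving out each library. The edgeR test was also tested on simulated data.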

Additional observations from a re-analysis of the deposited data

How the results depend on the processing

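Under 15 alternatives, 6 keratins passed the test in 14, 4 of them higher and 2 lower, and leaving out each library gave 6 to 6. With a fold change of 1.5 built into the test the number was 1 (KRT10), and 2585 genes passed in all, against 9059 to 10021 under the other alternatives and 9059 to 9486 when a library was left out. KRT18, which did not pass, ranged from -0.0026 without YTHDF1 KO replicate 1 to 0.049 without wild-type replicate 2 on the log2 scale with a library left out, and was 0.051 with library size only. KRT80 ranged from 0.18 without knockout replicate 2 to 0.37 without knockout replicate 1. KRT8P12 (-0.031 to 0.17 with a library left out) and KRT8P3 (-0.13 to 0.32) and the epithelial gene EPCAM (-0.21 to 0.058), none past the threshold, also changed sign, and the cause was not tested. Of 961 values for 69 further genes, 900 kept their direction and side of the threshold, 57 lost significance (35 of them under the 1.5-fold test) and 4 changed sign. DESeq2 left SOX2 (adjusted p 0.0645), LUM (0.0876) and PKP2 (0.0508) short of the threshold. The sum of KRT81 and KRT86, which is almost all KRT81 counts, ranged from -0.38 to -0.29 over 11 alternatives, all past the threshold. The log2 difference of the KRT18 to KRT8 ratio ranged from -0.18 to -0.15 over 8, one of which, the principal transcript length, was chosen after seeing the data.

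With the replicate block, 6 keratins and 9703 genes passed, and of the further genes DSG2 (adjusted p 0.058) and LUM (0.0653) did not. Same-numbered libraries did not deviate together (correlations -0.0459, -0.0147 and 0.0592 over 11258 genes), so the numbers are not read as pairs. Depth limits KRT17 and KRT86, and the division of reads among KRT81, KRT83 and KRT86 is uncertain at any depth.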
